A study of Mus musculus with 8 samples.

Results

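The rows of a table of mouse 3' untranslated regions (3' UTRs) that carry no gene symbol, a Gm symbol or a Rik symbol were described in an immunoprecipitation of the RNA-binding protein CPEB2. A row was taken when its symbol was empty, was Gm followed by digits or ended in Rik, and when its mean normalized count over all libraries was at least 1. The rows were thus selected on a measured value, the mean normalized count, besides their symbols. This gave 1095 of 20586 rows, of which 431 had no symbol, 329 had a Gm symbol and 335 had a Rik symbol. A further 1382 rows met the rule on symbols and fell below the mean count, 832 of them with no count. Just inside the limit lay B430305J03Rik, Gm42743 and Gm14862, and just outside lay Gm10447, Gm10941 and a row described as a pleckstrin homology domain gene, all with a mean normalized count that rounds to 1.

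The study sequenced RNA pulled down by an antibody to CPEB2 (IP) and that of the whole lysate (Input), from mammary epithelial cells of Cpeb2 knockout (KO) and wild-type (WT) mice whose strain label reads C57BL/6J 129. The cells were isolated fresh with enzymes, freed of red cells and enriched for epithelium. The 8 libraries formed 4 groups of 2, KO IP, KO Input, WT IP and WT Input. Their titles read RIP2 with WT3 or KO3, and RIP3 with WT4 or KO4. RIP2 and RIP3 are taken here as RIP experiments 2 and 3. The titles do not say what the 3 and 4 after the genotype stand for, and these numbers change together with the RIP number. The labels do not give the animals' age, the design of the knockout allele or the number of animals, and poly(A) RNA was purified from Input only. The antibody was used in both genotypes, so by design KO IP is the background of recovery without CPEB2.

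CPEB2 is one of the CPEB family of RNA-binding proteins, which recognise U-rich elements in 3' UTRs and thereby control polyadenylation in the cytoplasm and the translation of the bound mRNA. Gm symbols are provisional names that mouse nomenclature gives to predicted gene models, and Rik symbols are provisional names that go back to RIKEN's full-length cDNA clones. Such rows can stand for protein-coding genes that had not been named yet, for long noncoding RNAs, for pseudogenes or for readthrough models that join neighbouring genes. Pseudogenes resemble a parent gene in sequence, so counts of their rows can include reads of the parent.

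The authors deposited 1 value per group and row, the log2 of a normalized count plus 1, with no error, so overlap between libraries of 2 groups cannot be shown. They also deposited an interaction, which is IP minus Input (log2) of WT with that of KO subtracted, with its standard error (SE), and an adjusted p from a Wald test for the 5327 rows whose mean normalized count reached 42.9. Where the interaction is positive, IP over Input was higher in WT. Of the 1095 rows, 203 had an adjusted p, which were 111 rows with no symbol, 34 Gm rows and 58 Rik rows, and these are called tested rows below. The rest fell below the authors' limit on the mean count, so the tested rows are the well-counted ones.

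Input held the keratins Krt8 and Krt18 and the adhesion molecule Epcam, and the 7 luminal markers ranged from 5.84 to 11.4 in KO Input and from 5.79 to 11.2 in WT Input. The 5 basal and myoepithelial markers ranged from 5.75 to 7.82 in KO Input and from 5.93 to 7.78 in WT Input. Markers of other cell types were present too. The 4 endothelial markers ranged from 7.36 to 9.39 in KO Input and from 7.39 to 9.20 in WT Input, and the 4 fibroblast markers from 7.81 to 9.73 in KO Input and from 7.53 to 9.48 in WT Input. The 3 leukocyte markers ranged from 3.77 to 6.72 in KO Input and from 2.65 to 6.43 in WT Input. Of the 3 adipocyte markers, Fabp4 was at 6.69 in KO Input and 6.66 in WT Input, while Adipoq and Plin1 were at 1.02 and 0.30 in KO Input and at 1.19 and 0.43 in WT Input. Their part in the results was not tested. The 3' UTR row of Cpeb2 itself was at 7.43 in KO IP, 5.98 in KO Input, 9.64 in WT IP and 6.11 in WT Input, with an interaction of 2.12 ± 0.45 (SE; adjusted p = 0.00119 in the authors' deposited Wald test). Its Input values do not check the deletion, since the deleted part of the gene was not given in the sources used here.

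Most rows with no symbol were not uncharacterised genes. Of the 431, 378 were described in the table by the name of a gene, 19 as predicted genes and 34 as cDNA clones or similar, and 390 shared their gene accession with a row that did carry a symbol. Among the 111 tested, 102 were described by a gene name and 106 shared an accession with such a row. Gm rows were the reverse, with 29 of 34 tested rows described as predicted, and 330 of 335 Rik rows were described by a clone name. Rows with no symbol are therefore named here by the symbol of the row that shares their accession.

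**Figure D1:**
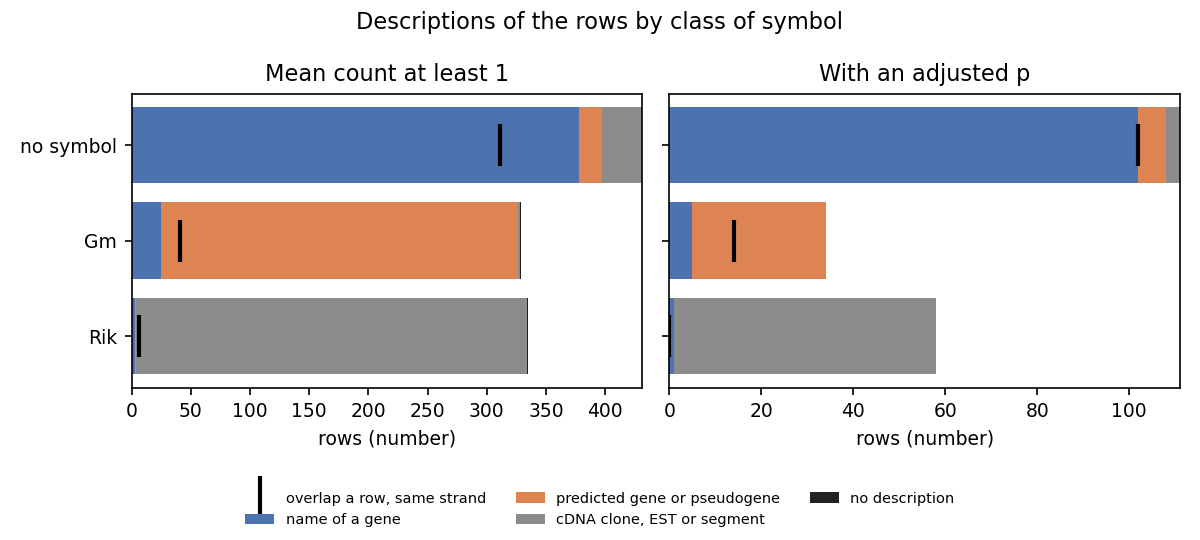
Number of rows (horizontal axis) by class of symbol and by the kind of description in the table, for all rows with a mean count of at least 1 (left) and for those with an adjusted p (right). The black ticks mark how many overlap another row on the same strand, 102 of 111 tested rows with no symbol, 14 of 34 Gm rows and 0 of 58 Rik rows.

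The tested rows with no symbol were mostly further transcripts of genes that the table lists elsewhere. On the same strand, 102 of the 111 shared bases with another row, which is 91.9%, against 4.47% of all tested rows and 2.38% of tested rows with other symbols. In 52 of the 102 every deposited value was identical to that of the partner, and in 27 of the 102 the interval was identical too. The 203 tested rows held 195 distinct sets of values among themselves. Rows that share bases share reads, so a row and its partner are not independent measurements.

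Gm rows overlapped named genes as well. Of 14 tested Gm rows that shared bases with another row on the same strand, 10 shared them with a row of another accession. Gm20388 had the interval and the values of Galnt2, which starts mucin-type O-glycans. Gm38394, described as Zbed6, a repressor of Igf2 whose coding sequence lies within Zc3h11a, shared 1603 bases with the Zc3h11a row. Gm28048, described as a B3gnt2 transcript, shared 1246 bases with the B3gnt2 row. None of the 58 tested Rik rows overlapped a row on the same strand, and 8 overlapped one on the other strand. Whether the authors counted by strand was not given in the sources used here, so those 8 cannot be told apart from their antisense partners.

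Many Rik symbols are older names. In RefSeq's table of the mouse build GRCm38.p6, 20 tested Rik rows and 4 tested Gm rows had a later gene name. Examples are 3110043O21Rik, now C9orf72, a subunit of a complex in membrane traffic and autophagy, 9430076C15Rik, now Creb5, a transcription factor, and 9430020K01Rik, now Jcad, a protein of endothelial junctions. Of the 92 tested Gm and Rik rows, RefSeq lists 59 as protein coding, 8 as long noncoding RNAs and 10 as pseudogenes, and 15 had no match.

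The interaction asks which 3' UTRs had a higher IP over Input in WT than in KO. It was called at an adjusted p of at most 0.05 for 2 of 203 tested rows, both with no symbol and both higher in WT, against 2.25% of all tested rows. No row was called lower in WT, among these or in the whole table (0%). No Gm row and no Rik row was called in the authors' deposited Wald test. At an unadjusted p of at most 0.05, 1 Gm row and 6 Rik rows were higher in WT and none was lower, and over all 203 tested rows 15 were higher and 3 lower, against 12.5% and 1.09% of all tested rows. At an adjusted p of at most 0.10, 4 of the 203 rows were higher in WT, against 3.17% of all tested rows.

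Thsd7a encodes a membrane protein with thrombospondin repeats that acts in endothelial cell migration. Its row with no symbol, the 3' UTR at chr6:12311610-12317366 on mm10, was at 6.60 in KO IP, 6.65 in KO Input, 7.94 in WT IP and 6.21 in WT Input on the log2 scale. WT IP stood above the other groups. In the authors' deposited table its interaction was 1.88 ± 0.52 (SE; 95% interval 0.86 to 2.90; adjusted p = 0.0277 in the Wald test), and the Thsd7a row with a symbol held the same interval and the same values.

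Tnrc18 encodes a large nuclear protein with a BAH domain. Its row with no symbol, at chr5:142754796-142755372, was at 4.48 in KO IP, 6.20 in KO Input, 6.36 in WT IP and 5.96 in WT Input. KO IP was the low group. In the authors' deposited table its interaction was 2.198 ± 0.61 (SE; 95% interval 0.9996 to 3.396; adjusted p = 0.0287 in the Wald test). The Tnrc18 row with a symbol spans 584 bases against 577 and was called too, at 2.22 (adjusted p = 0.0272 in the Wald test of the authors' deposited table). Both calls are thus calls of a named gene that the table lists more than once.

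Neither call held under every setting. With the median interaction of all tested rows, 0.23, taken as the zero point, adjusted p was 0.135 for Thsd7a and 0.132 for Tnrc18, and after subtraction of the trend with 3' UTR length it was 0.357 for Thsd7a and 0.0259 for Tnrc18. Adjusted over every row with a p-value it was 0.0865 for Thsd7a and 0.0900 for Tnrc18, and over rows with a mean count of 10 or more 0.0498 for Thsd7a and 0.0518 for Tnrc18.

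**Figure D2:**
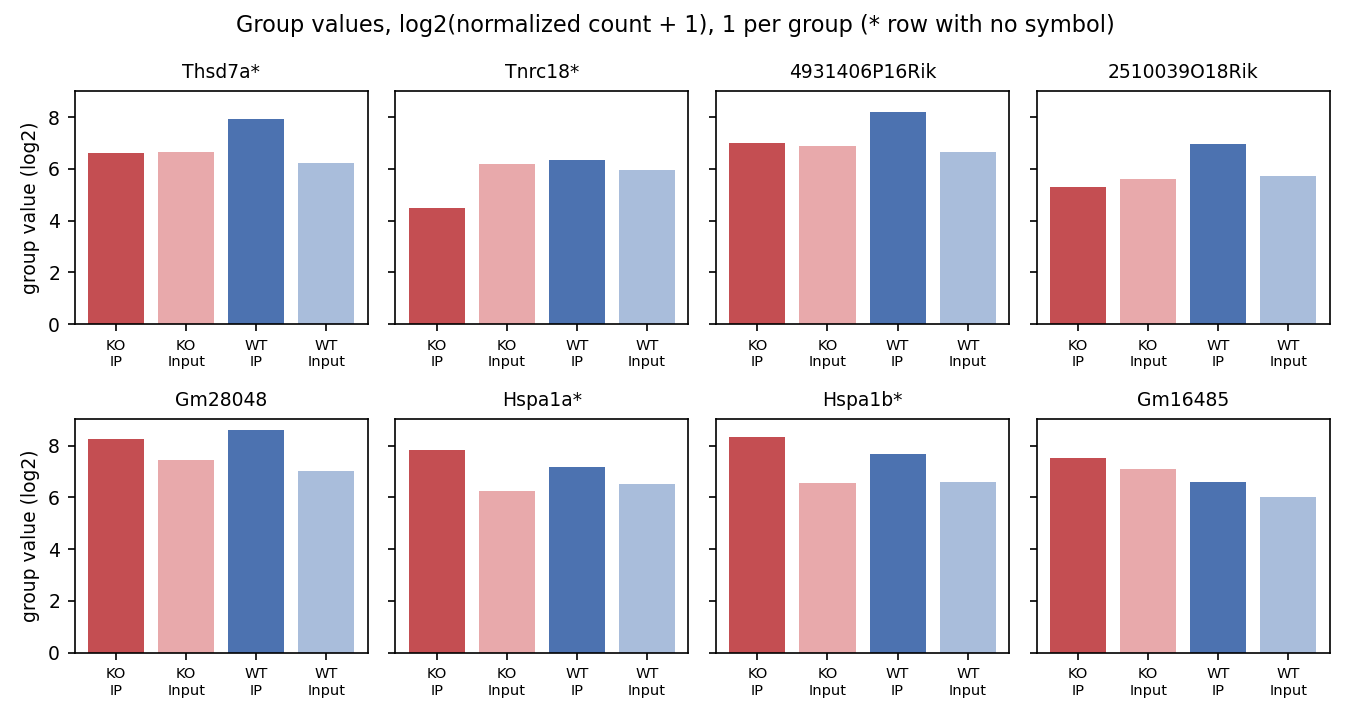
The authors' group values, log2 of normalized count plus 1 (vertical axis, from 0), for 8 rows in KO IP, KO Input, WT IP and WT Input, 1 value per group with no error. Thsd7a and 4931406P16Rik are highest in WT IP, Tnrc18 is lowest in KO IP at 4.48, and Gm16485 is lower in both WT groups than in the KO groups.

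The Rik row nearest to a call was 4931406P16Rik, now Garre1, an effector of Rac GTPases. It was at 6.998 in KO IP, 6.90 in KO Input, 8.18 in WT IP and 6.64 in WT Input. In the authors' deposited table it had an interaction of 1.46 ± 0.45 (SE; adjusted p = 0.0512 in the Wald test). This row overlapped no other, so it is a measurement of its own. Next came the row of Zmynd8, a reader of modified histones, at 1.55 ± 0.52 (adjusted p = 0.0959 in the authors' deposited table), whose values equal those of the Zmynd8 row with a symbol. The uncharacterised 2510039O18Rik was at 5.32 in KO IP, 5.62 in KO Input, 6.98 in WT IP and 5.72 in WT Input, with an interaction of 1.56 ± 0.58 (adjusted p = 0.148 in the authors' deposited table).

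Further rows toward the WT side did not pass the test. E330009J07Rik, now Dennd11, had an interaction of 1.25 ± 0.59 and Jcad of 0.99 ± 0.41 in the authors' deposited table, with adjusted p of 0.313 and 0.246 in the Wald test. B230219D22Rik had 0.91 ± 0.42 and Gm28048, the leading Gm row, 0.80 ± 0.38 in the same table, at adjusted p of 0.303 and 0.322. The B3gnt2 row that overlaps Gm28048 had 0.77. The row of Rbm47, an RNA-binding protein of epithelia, had an interaction of 1.39 with adjusted p = 0.279, while the longer Rbm47 row with a symbol was called (adjusted p = 0.0453, both in the authors' deposited table).

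On the other side, where IP over Input was lower in WT, no row passed the test. The lowest interaction belonged to the row of Myh14, a nonmuscle myosin heavy chain, which was at 5.86 in KO IP, 6.14 in KO Input, 4.51 in WT IP and 6.13 in WT Input (-1.37 ± 0.59, adjusted p = 0.265 in the authors' deposited Wald test). Yars, the tyrosyl-tRNA synthetase, had -1.17 ± 0.55 and adjusted p = 0.311 in the authors' deposited table. Among Rik rows, 1810032O08Rik, now the snoRNA host gene Snhg16, was lowest at -0.97 ± 0.59, adjusted p = 0.493 in the Wald test of the authors' deposited table.

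The rows of Hspa1a and Hspa1b, which encode nearly identical inducible Hsp70 chaperones, are 59 and 81 bases long. They lie within the rows of the same genes with a symbol, which have 801 and 643 bases. Hspa1a was at 7.81 in KO IP, 6.26 in KO Input, 7.17 in WT IP and 6.51 in WT Input. Hspa1b was at 8.35 in KO IP, 6.57 in KO Input, 7.68 in WT IP and 6.58 in WT Input. For both, IP exceeded Input more in KO than in WT, with interactions of -0.90 ± 0.43 and -0.68 ± 0.39 and adjusted p of 0.332 and 0.462 in the authors' deposited Wald test. The longer rows had interactions of -0.77 ± 0.34 and -0.73 ± 0.32, with adjusted p of 0.281 and 0.279 in the same Wald test. Since the genes are near copies, the split of reads between them is uncertain.

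**Figure D3:**
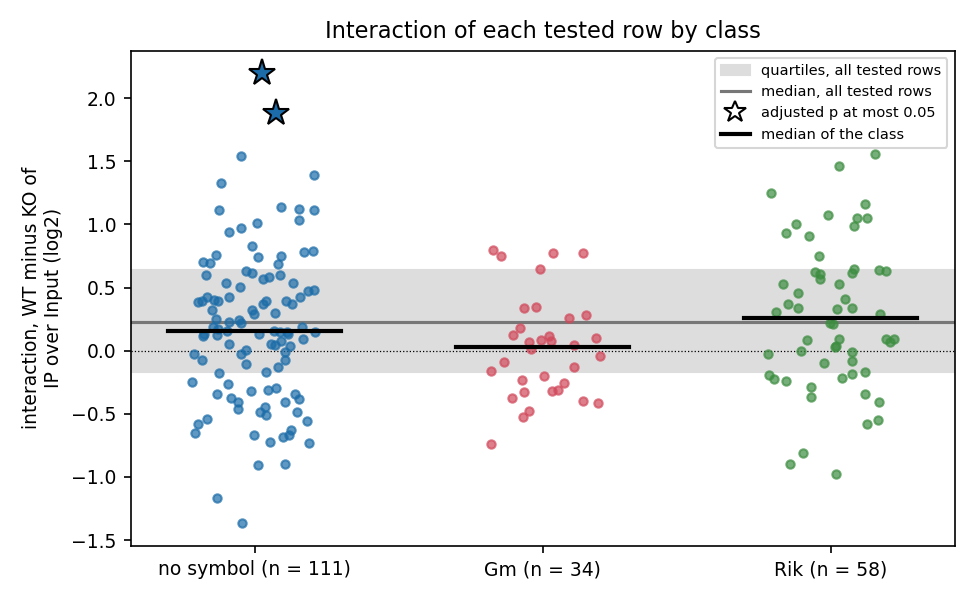
Interaction (vertical axis, log2, WT minus KO of IP over Input) of each tested row by class, with the median of each class (black bars) and the quartiles and median of all 5327 tested rows (grey). The 2 called rows, marked by stars, both have no symbol, and the Gm median lies lowest.

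The interaction of these rows as a group lay slightly below that of the table. Its median in the authors' deposited table was 0.13 over the 203 tested rows, against 0.23 over all tested rows. By class the median was 0.16 for rows with no symbol, 0.03 for Gm rows and 0.26 for Rik rows. Without rows that overlap another on the same strand, it was -0.31 over 9 rows with no symbol and -0.11 over 20 Gm rows. All 58 tested Rik rows were free of such overlap. The interaction was above 0 in 128 of 203 rows, against 65.1% of all tested rows. The rows were also shorter, with a median 3' UTR of 1417 bases against 1818 for all tested rows, and the interaction moved with length in both sets. In rows of up to 500 bases the median was -0.34 for 29 of these rows and -0.41 for 326 rows with other symbols. Between 2000 and 4000 bases it was 0.32 for 45 of these rows and 0.41 for 1687 rows with other symbols.

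Among the tested Gm and Rik rows the median interaction differed by RefSeq class. It was 0.29 over 59 protein-coding rows, -0.28 over 8 long noncoding RNAs and -0.15 over 10 pseudogenes in the authors' deposited table, with no test of the difference. The classes also differed in length, with median 3' UTRs of 1998, 1574 and 980.5 bases in that order. The part of length in the difference was not tested. No row of any of these classes was called, protein coding or not, against 2.25% of all tested rows. Counts of pseudogene rows are uncertain, since reads can also match the parent gene. Gm12355, Gm6768 and Gm9825 are now Srsf3-ps, Ncoa4-ps and Rnps1-ps, pseudogenes of splicing factors and of a ferritin receptor. Their interactions were -0.33, 0.01 and -0.42.

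Rows that shared bases mostly had interactions close to those of their partners, with exceptions among short rows inside longer ones. For the 56 rows whose values differed from those of a tested partner, the absolute difference in interaction had a median of 0.07, and it was under 0.1 in 32. Among these 56 the largest belonged to Gm20521, 81 bases inside the 3' UTR of Pabpn1, a nuclear poly(A)-binding protein. Gm20521 was at 5.25 in KO IP, 7.15 in KO Input, 5.74 in WT IP and 6.91 in WT Input, with an interaction of 0.77 in the authors' deposited table. The Pabpn1 row was at 7.36, 9.17, 7.08 and 9.10 in the same groups, with -0.22. Shisa5, which encodes an endoplasmic reticulum protein, had short rows at 1.11 to 1.14 and a longer row with a symbol at 0.56 in the authors' deposited table.

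**Figure D4:**
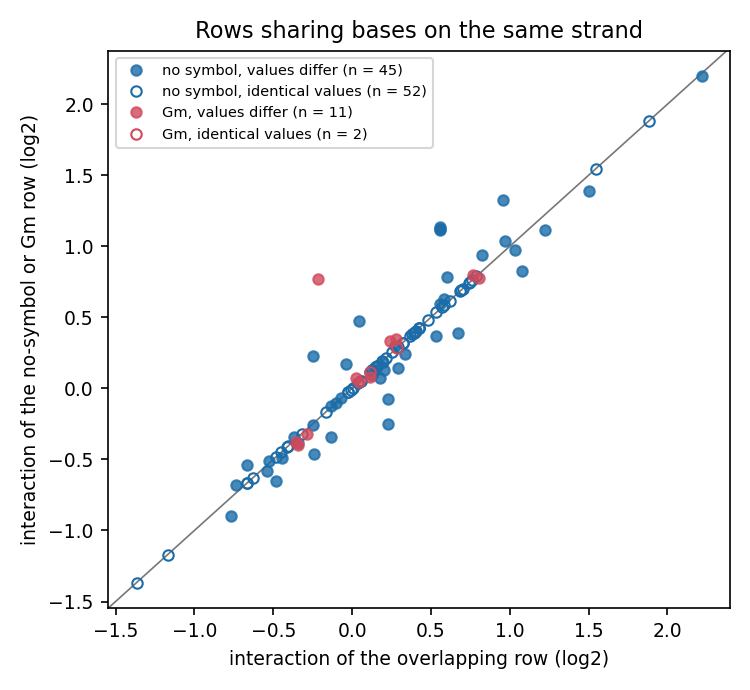
Interaction (log2) of each tested row with no symbol or a Gm symbol (vertical axis) against that of the row whose bases it shares (horizontal axis), for pairs in which both rows have an adjusted p. Open points are rows with identical values, 52 with no symbol and 2 Gm, and among these pairs Gm20521 lies farthest from the line of equality.

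The difference of IP and Input within a genotype also contains the difference between unselected and poly(A)-selected RNA. In KO cells IP was at least 1 above Input on the log2 scale in 29 of 203 tested rows and at least 1 below it in 37, against 17% and 17% of all tested rows. In WT cells the numbers were 56 and 35, against 28.1% and 15.7%. By class, higher in IP in KO were 8 of 34 Gm (23.5%), 7 of 58 Rik (12.1%) and 14 of 111 no-symbol rows (12.6%). In WT the numbers were 7, 18 and 31 (20.6%, 31% and 27.9%). Lower in IP in KO were 7, 15 and 15 (20.6%, 25.9% and 13.5%), and in WT 8, 10 and 17 (23.5%, 17.2% and 15.3%).

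Of the 5 rows with the highest IP over Input in KO, 4 were also among the 5 highest in WT, namely Ppp1cb, Aebp2, Rsbn1 and a row on chromosome 6 that the table describes only as a predicted gene. Ppp1cb, a catalytic subunit of protein phosphatase 1, was at 6.56 in KO IP, 4.07 in KO Input, 6.53 in WT IP and 3.57 in WT Input. That row is 131 bases within the Ppp1cb row with a symbol, which has 4465 bases. The longer row was at 9.93 in KO IP, 8.04 in KO Input, 9.87 in WT IP and 7.97 in WT Input. The predicted gene was at 6.61, 4.23, 7.10 and 4.22 in that order of groups. Aebp2, an accessory subunit of the Polycomb complex PRC2, was at 5.82, 3.71, 6.75 and 3.36. That row is 545 bases within the Aebp2 row with a symbol, which has 3009 bases and was at 8.30, 7.04, 9.35 and 7.14. Rsbn1 was at 7.29, 5.18, 7.77 and 5.28. The long noncoding Gm15737, at 7.73, 5.59, 7.12 and 5.17, was the highest Gm row in both genotypes and among the 5 highest in KO but not in WT.

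Of the 5 rows with the lowest IP over Input in KO, 2 were also among the 5 lowest in WT. The long noncoding 3930402G23Rik was at 4.05 in KO IP, 6.83 in KO Input, 3.78 in WT IP and 7.12 in WT Input. Gtf3c2, a subunit of the RNA polymerase III factor TFIIIC, was at 5.30, 8.24, 5.19 and 7.96 in that order of groups. That row is 761 bases within the Gtf3c2 row with a symbol, which has 1544 bases and was at 5.93, 8.81, 5.65 and 8.56. Gm4951 was at 4.02, 6.85, 4.25 and 6.40.

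**Figure D5:**
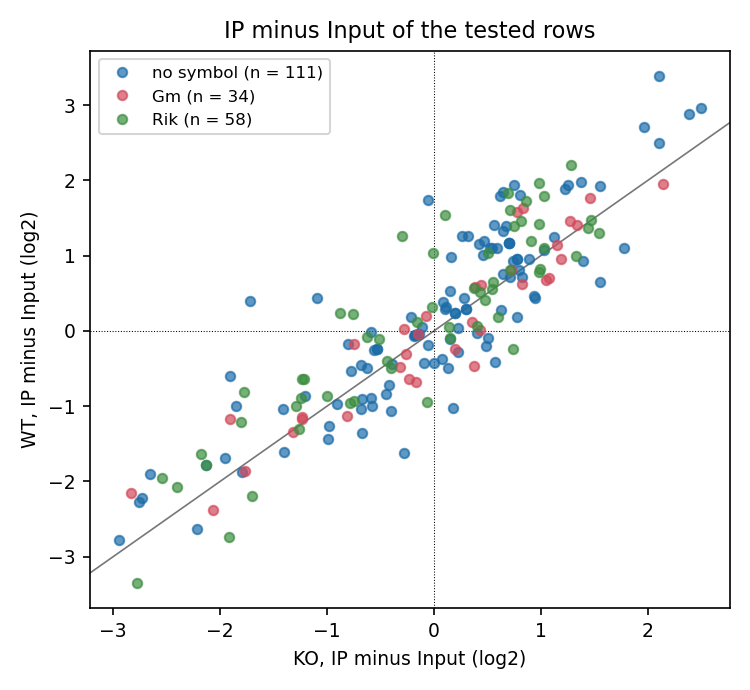
IP minus Input (log2) in KO (horizontal axis) and in WT (vertical axis) for each of the 203 tested rows, coloured by class. The line marks equal differences, and Tnrc18, below 0 in KO and above 0 in WT, lies farthest from it.

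Set directly against each other, WT IP was at least 1 above KO IP on the log2 scale in 8 of 203 tested rows and at least 1 below it in 2, against 6.78% and 0.845% of all tested rows. The higher rows were 4 Rik rows and 4 with no symbol, with no Gm row among them. The Rik rows were 2510039O18Rik, 5730409E04Rik, 4931406P16Rik and 1810030O07Rik, with differences of 1.66, 1.43, 1.18 and 1.08, WT minus KO. The lower rows were Myh14 and Ptpn5, a tyrosine phosphatase. Ptpn5 was at 4.59 in KO IP, 6.81 in KO Input, 3.25 in WT IP and 5.88 in WT Input, so its Input was lower in WT too. Its interaction was -0.72 ± 0.76 (SE; adjusted p = 0.733 in the authors' deposited Wald test).

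Between the Input groups few rows differed. No row was at least 1 higher in WT Input, as in the whole table (0%), and 1 was at least 1 lower, against 0.188% of all tested rows. That row was Gm16485, at 7.54 in KO IP, 7.09 in KO Input, 6.61 in WT IP and 6.00 in WT Input. Both WT values were lower, and its interaction was 0.07 ± 0.52 (adjusted p = 0.962 in the authors' deposited Wald test).

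By level, the leading rows were 2900026A02Rik and Gm38394, with mean normalized counts of 660.0 and 633.5. 2900026A02Rik was at 9.62 in KO IP, 9.19 in KO Input, 9.54 in WT IP and 9.03 in WT Input. Rows with no symbol at a high level included Adamts4, an aggrecanase, Eif4g2, a translation initiation factor, and Fzd7, a Wnt receptor. Fzd7 was at 8.51, 8.08, 9.02 and 7.86 in that order of groups, with an interaction of 0.75 ± 0.39 (adjusted p = 0.390 in the authors' deposited Wald test). Per kilobase the highest was a 30-base row of the transcription factor Jun, at a mean normalized count of 3755 per kilobase. These 30 bases, with a mean normalized count of 112.6, lie within the Jun row with a symbol. That row has 1233 bases and a mean normalized count of 931.2.

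The 892 rows with no adjusted p had a median mean normalized count of 5.74, and their interaction had a median SE of 1.64, against 0.54 for the tested rows. At an unadjusted p of at most 0.05, 4 of these rows were higher in WT and 6 lower, against 1.5% and 0.521% of all 9016 rows of the table with a mean count of at least 1 and no adjusted p. In 108 of the 892 at least 1 group was listed at 0. Gm rows made up 5.76% of all rows on chromosome 14, against 1.60% of the table. On that chromosome 36 Gm rows lay in a run at chr14:3075784-7546284 with neighbours less than 1000 kb apart, none of them tested, with 2.16 as their median mean normalized count and lengths between 959 and 1365 bases. IP exceeded Input in 27 of the 36 in KO and in 32 in WT, and the interaction was above 0 in 14, with a median SE of 2.59. Their median group values were near the floor, at 1.56 in KO IP, 1.03 in KO Input, 1.99 in WT IP and 1.36 in WT Input. With a limit of 500 kb the longest run was one of 26 Gm rows at chr2:175063306-177936537, none tested, with 3.94 as their median mean normalized count. In that run IP exceeded Input in 23 rows in KO and in 25 rows in WT, and the interaction was above 0 in 12, with a median SE of 2.19. Its median group values were 2.74 in KO IP, 0.87 in KO Input, 2.73 in WT IP and 1.06 in WT Input. Over all 9016 rows with no adjusted p and a mean count of at least 1, IP exceeded Input in 40.7% in KO and in 39.7% in WT. Rows with such low counts can pass the limit on the mean count through the groups where they are high. The difference between the runs and the 9016 rows was not tested. With a limit of 250 kb the longest run held 21 Gm rows, again on chromosome 14. The limits were chosen after the positions were seen.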

How the data were processed

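RIP-seq libraries of KO and WT cells were analysed from 1 deposited table of 3' UTR rows on mm10. Bowtie 0.12.9, Bowtie2 2.2.2, DESeq2 and mm10 appear in the submitters' processing notes, without roles. The counting rule and its use of strand were not given in the sources used here. Group values are log2 values that the authors deposited, 1 per group. The mean normalized count is a signal that the authors deposited. The Wald score, p-value and adjusted p are those of the authors' deposited table, as are the log2 interaction and its SE. The table's 8 columns per library are named by sequencing index alone and could not be matched to samples, so they were not used, edgeR was not run, and depth is unknown. The labels do not say that the libraries came from separate animals, so p-values measure the spread between libraries, which may be technical. Each RIP experiment holds all 4 groups, and values within an experiment could not be had.

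Overlaps between rows were found from the deposited coordinates, and later names and gene classes were taken from RefSeq's table. Intervals are the estimate plus and minus 1.96 SE. Alternatives were another threshold, other sets of rows for the Benjamini-Hochberg adjustment, another zero point, subtraction of a running median over 301 rows by length, and subsets of rows. Counting rows of identical values once was added after the data were seen. The rule for named rows took those called, those with the smallest p in each direction up to 12, the highest by count, by count per kilobase and by IP minus Input, and the largest Input differences. Rows shown for their class, their overlap or their IP difference were chosen after their values were seen. The rows and lists were chosen with earlier results of these data known. The recomputed Wald test, adjustment and overlap search were tested on simulated data. The software was pandas 2.3.3, numpy 2.4.6, matplotlib 3.10.9 and scipy 1.17.1 under Python 3.11.15.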

Additional observations from a re-analysis of the deposited data

Results flagged for a closer look

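For 2 rows with no symbol the difference of IP and Input differed between the genotypes in the authors' deposited Wald test. The interaction, WT minus KO, was 2.198 for Tnrc18 and 1.88 for Thsd7a. Both rows share their bases with a row of the same gene that carries a symbol and was called as well.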

How the results depend on the processing

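No paired analysis was possible because the columns per library carry no replicate number and could not be matched to samples. For the same reason no library could be left out and no count model was refitted. The number of called rows, 2 as deposited, against 120 of 5327 rows in the table, was 4 at an adjusted p threshold of 0.10 (over all rows 169), 0 with the adjustment over every row with a p-value (over all rows 47 of 17226), 1 over rows with a mean count of at least 10 (over all rows 59 of 9917), 0 after subtracting the median of all tested rows (over all rows 30) and 1 with the length trend subtracted (over all rows 17). The numbers of these rows were the same for the 24 rows named by p. It was 0 among the 79 rows that overlap no other (over all rows 107 of 4721) and 1 when rows of identical values were counted once (over all rows 120 of 5269), an alternative added after the data were seen. It stayed at 2 without older names of named genes, and no row was called lower in WT under any of these settings. The median interaction was 0.13 as deposited, against 0.23 over all tested rows of the table. It was -0.0281 over all 1095 rows, -0.0979 after subtracting that 0.23 and -0.0295 with the length trend subtracted. Over the 79 rows that overlap no other it was 0.0889. The 0.23 covers tested rows only, so it is no match for the 1095 rows, most of which were not tested. Subtracting it only moves the zero point. With rows of a mean count of at least 10, 55 of 520 were past 2-fold between the IP groups (10.6%, over all rows 10.8%), 7 between the Input groups (1.35%, over all rows 0.918%), 198 between IP and Input in KO (38.1%, over all rows 33.1%) and 231 in WT (44.4%, over all rows 43.0%). Among rows that overlap no other, the numbers were 6 between the IP groups (7.59%, over all rows 8.09%), 32 between IP and Input in KO (40.5%, over all rows 35.0%) and 39 in WT (49.4%, over all rows 44.7%). Of 120 settings for the 24 rows named by p, 112 kept direction and side of the threshold, 6 lost a call, 2 gained one and 0 changed direction. Only 2 of the 24 rows were called as deposited, so all 6 lost calls were theirs and the rest had none to lose. The 24 rows were picked by their p in these same data, so the 112 are no measure of how stable the calls are. The authors' SE of tested rows ranged from 0.33 to 1.15, and an interaction had to reach about 3.26 SE to be called.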

Other observations

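Rows with no symbol were unevenly spread over the chromosomes. They made up 7.01% of the rows of chromosome 5 and 5.09% of those of chromosome 7, against 2.09% of the table. Over chromosomes 1 to 9 there were 374 such rows, and over chromosomes 10 to 19 there were 48, with shares per chromosome of 0.978 to 7.01% in the first set and 0.218 to 1.14% in the other. Rik rows made up 1.67% and 1.62% of the rows of the same 2 sets.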
